A study of Ovis aries with 18 samples.

Results

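A set of abundant transcripts stood moderately lower in soleus than in the other muscles, and 33 of the 20477 genes in the table formed that set. Members were selected on their mean levels: a gene was included when its level, averaged over the means of soleus (SOL), psoas major (PM) and longissimus lumborum (LL), reached 100 FPKM, when PM and LL were both 2 or more times SOL, and when they were not both 4 or more times SOL. FPKM scales reads by gene length and by 1000000 reads of the library, so levels can be compared between genes of different length. The members were 33 of the 670 genes that reached 100 FPKM. Because the rule used SOL against PM and SOL against LL, these differences are described below and not tested, and only PM against LL was tested.

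RNA was taken from SOL, PM and LL of lambs, from the left side of the carcass, giving 18 libraries, 6 from each muscle. The labels name no treatment, breed, age or sex, so the groups are described by muscle alone. Nothing in the labels ties a library to a carcass, so the spread behind each p-value is that between libraries, which may in part be technical. In the values, deviations of same-numbered libraries correlated weakly between the muscles (r from 0.086 to 0.23). Unless stated otherwise, the p-values below do not take this into account. Ribosomal RNA was depleted before sequencing. Library totals, recovered from the values, ran from 11924862 to 14747118 reads in SOL, from 11124192 to 13747139 in PM and from 10216739 to 12839575 in LL.

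Skeletal muscles differ in their mix of fibre types. Slow-twitch fibres contract slowly and rely on mitochondrial respiration, whereas fast-twitch fibres contract quickly and many of them rely on glycolysis. Soleus is a postural muscle of the hind leg that is rich in slow-twitch fibres in many mammals, longissimus is a long back muscle rich in fast-twitch fibres, and psoas major is the tenderloin muscle, which is more oxidative than longissimus in cattle. Muscle RNA is dominated by a small number of very abundant transcripts, so a gene at the levels studied here belongs to the upper end of the transcriptome.

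The table gives Ensembl sheep identifiers without names, and none of them occurs in the RefSeq gene table used. No role is therefore assigned to any member, and the muscle labels could not be checked against marker genes. Identifiers are given for 3 members. The others are called by gene length, which was recovered from the values, and by their rank in mean level from 1 to 33. In bulk RNA, fewer cells of a type and less RNA per cell cannot be told apart.

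**Figure D1:**
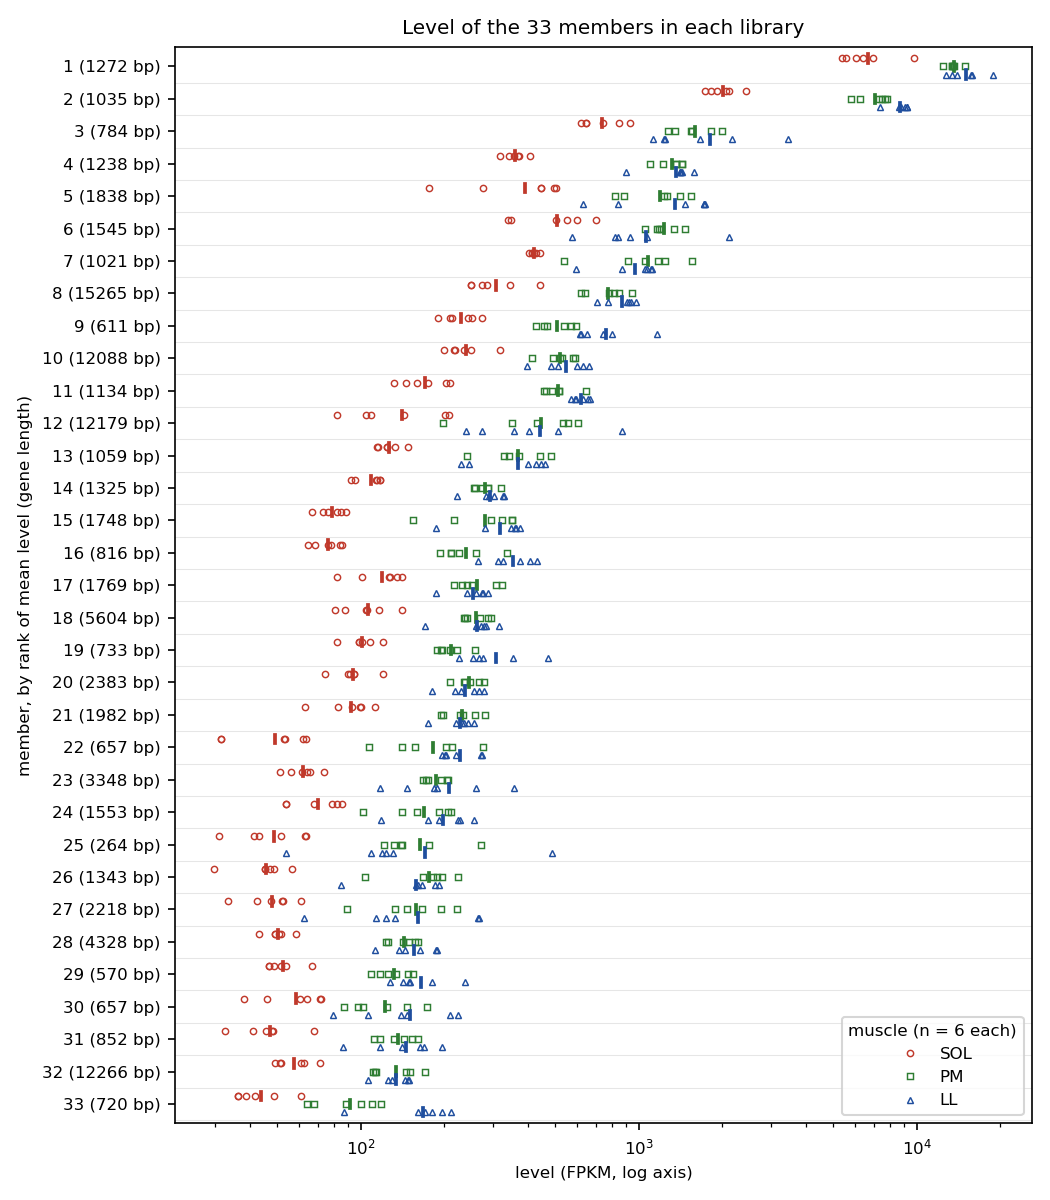
Level of each of the 33 members in each library (FPKM, log axis), with members ordered by mean level and named by rank and gene length. Open symbols are libraries (n = 6 per muscle), and vertical ticks are means. SOL symbols lie left of all PM and LL symbols for 30 members.

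The members spanned more than 2 orders of magnitude. Mean levels over the muscles were at least 1000 FPKM for 4 members, 500 to 1000 FPKM for 5, 200 to 500 FPKM for 10 and 100 to 200 FPKM for 14. Every member was well sampled: the fewest reads of a member in any library were 97, for the 264-bp gene in SOL 4, and the most were 307350.

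ENSOARG00020006864 (1272 bp) was the most abundant member. It ranged from 5382 to 9764 FPKM in SOL (median 6247), from 12454 to 14949 in PM (median 13493) and from 12779 to 18819 in LL (median 14799). SOL 5 was the highest SOL library, at 9764 FPKM against 6976 or less in the others, and still lay below every PM and LL library. Among all genes of the table it ranked 5 in SOL, 3 in PM and 3 in LL. Its PM mean was 2.03 times its SOL mean, the member closest to the lower limit of the rule, and it would leave the set without SOL 1, SOL 2, SOL 6 or PM 2.

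ENSOARG00020005655 (1035 bp) showed the wider gap of the 2 leading members. It ranged from 1725 to 2441 FPKM in SOL (median 1981), from 5785 to 7832 in PM (median 7429) and from 7354 to 9215 in LL (median 8905). Mean and SD (n = 6 each) were 2010 ± 255 FPKM for SOL, 7068 ± 847 for PM and 8701 ± 700.1 for LL. SOL libraries lay far below both others, whereas PM and LL overlapped. Its LL mean was 4.33 times its SOL mean, so it was a member only because PM stood at 3.52 times SOL.

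LL 3 was the highest or the lowest LL library for several of the next members by level. The 784-bp gene ranged from 618 to 932 FPKM in SOL (median 697), from 1273 to 2002 in PM (median 1550) and from 1130 to 3438 in LL (median 1451), and the highest LL value was that of LL 3. The 1238-bp gene ranged from 317 to 407 FPKM in SOL (median 361), from 1100 to 1436 in PM (median 1363) and from 897 to 1583 in LL (median 1417), and here LL 3 was the lowest LL library. The 1545-bp gene ranged from 339.7 to 703 FPKM in SOL (median 528), from 1055 to 1469 in PM (median 1192) and from 575 to 2116 in LL (median 887). SOL and LL overlapped for this gene, since LL 2 at 575 FPKM lay below SOL 1 and SOL 3.

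The 1838-bp gene varied within each muscle in the same way by library number. It stood at 177 FPKM in SOL 2 and 275 in SOL 1, against 446 or more in the other SOL libraries. In PM it was lowest in PM 1 (819.9 FPKM) and PM 2 (882), against 1235 or more in the others, and in LL it was lowest in LL 2 (628) and LL 1 (840.3), against 1465 or more. Libraries 1 and 2 were thus the lowest of all 3 muscles for this gene. The 1021-bp gene was the steadiest member in SOL, at 402 to 440.0 FPKM (coefficient of variation 3.19%), while it ranged from 538 to 1559 FPKM in PM and from 595 to 1117 in LL.

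Among members of lower level, LL stood above PM for some and below it for others. The 816-bp gene had medians of 77.2 FPKM (SOL), 219 FPKM (PM) and 349.7 FPKM (LL), and the 1748-bp gene medians of 79.4 FPKM (SOL), 307 FPKM (PM) and 352 FPKM (LL). The 657-bp gene of rank 22 averaged 49.1 ± 14.4 FPKM over SOL libraries, 183 ± 60.4 over PM libraries and 227 ± 35.4 over LL libraries (SD, n = 6 each). Its LL mean, at 4.62 times SOL, was tied with that of the 816-bp gene for the widest gap from SOL. The other 657-bp gene, of rank 30, averaged 58.8 ± 14.0 FPKM in SOL, 122 ± 33.0 in PM and 151 ± 56.3 in LL. The 1343-bp gene had the reverse order of PM and LL, with medians of 46.4 FPKM (SOL), 185 FPKM (PM) and 163 FPKM (LL). At the lower end of level, the 12266-bp gene averaged 57.8 ± 8.49 FPKM in SOL, 134 ± 25.1 in PM and 134 ± 16.7 in LL.

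Over the 33 members, the PM mean was 2.03 to 3.88 times the SOL mean (median 2.58) and the LL mean 2.09 to 4.62 times the SOL mean (median 3.08). These ratios are the values that chose the members. The PM mean was at least 3 times SOL for 12 members and the LL mean for 18. The LL mean reached 4 times SOL for 4 members and the PM mean for none. For 26 members the ratio to SOL was larger for LL than for PM, and both ratios share the same SOL libraries.

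**Figure D2:**
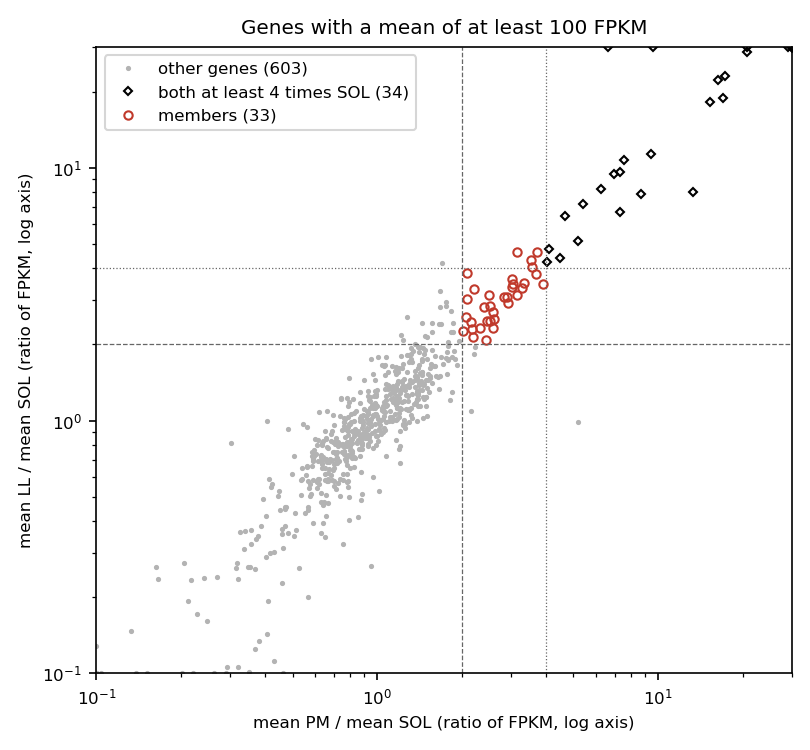
Mean PM level over mean SOL level (x axis) and mean LL level over mean SOL level (y axis), both as ratios of FPKM on log axes, for the 670 genes whose mean reached 100 FPKM. Dashed lines mark 2 and dotted lines 4, and 30 genes beyond 0.1 or 30 are drawn at the edge. The 33 members (red circles) lie between the bulk of the genes and the 34 genes with both ratios at 4 or more (black diamonds).

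The limits of the rule fall within a continuous range of values. The smaller of the PM and LL ratios to SOL was 2.03 and 2.07 for the members just above the lower limit, and 1.95 for both genes just below it. At the upper limit it was 3.72 and 3.67 for the members just inside and 4.03 and 4.09 for the genes just outside. At the abundance limit the means were 101 and 108 FPKM for the last members and 99.6 and 97.2 FPKM for the next genes that met the ratio limits. Genes thus continued on either side of each limit, close to the members inside it.

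All 6 SOL libraries lay below all 6 PM libraries for 32 members and below all 6 LL libraries for 31. Over the 15434 genes tested, the same held for 3.78% against PM and 4.16% against LL, and among the 670 abundant genes for 19.3% and 20.4%. The rule had selected genes low in SOL, so nothing is read from the difference. The exception for PM was the 12179-bp gene, at 81.9 to 208 FPKM in SOL and 197 to 607 in PM, where PM 2 was the only PM library within the SOL range. The exceptions for LL were the 1545-bp gene and the 264-bp gene, whose LL 1 value of 54.1 FPKM lay within the SOL range of 30.8 to 63.5.

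Among the 34 abundant genes with both ratios at 4 or more, SOL 3 was the highest SOL library for 27, at a median of 1.76 times the other 5 SOL libraries' median. Among the members, SOL 3 stood at a median of 1.04 times the median of the other 5 SOL libraries, with a range from 0.642 for the 1769-bp gene to 1.84 for the 12179-bp gene. It was the highest SOL library for 7 members and the lowest for 2. Without SOL 3 the rule gave 34 genes, among them all 33 members.

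Together, the members took up 2.11% to 2.77% of the summed FPKM of a SOL library, 5.93% to 6.98% of a PM library and 6.80% to 7.20% of an LL library. Mean and SD (n = 6 each) were 2.44% ± 0.248 for SOL, 6.47% ± 0.357 for PM and 7.05% ± 0.139 for LL. The PM and LL ranges overlapped only through PM 5 and LL 6. Counted as reads, which weights long genes more, the members took up 2.21% to 3.13% in SOL, 6.00% to 6.99% in PM and 6.91% to 7.56% in LL. The most abundant member alone gave 0.978% to 1.58% of the summed FPKM in SOL, 2.41% to 2.80% in PM and 2.35% to 3.34% in LL.

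**Figure D3:**
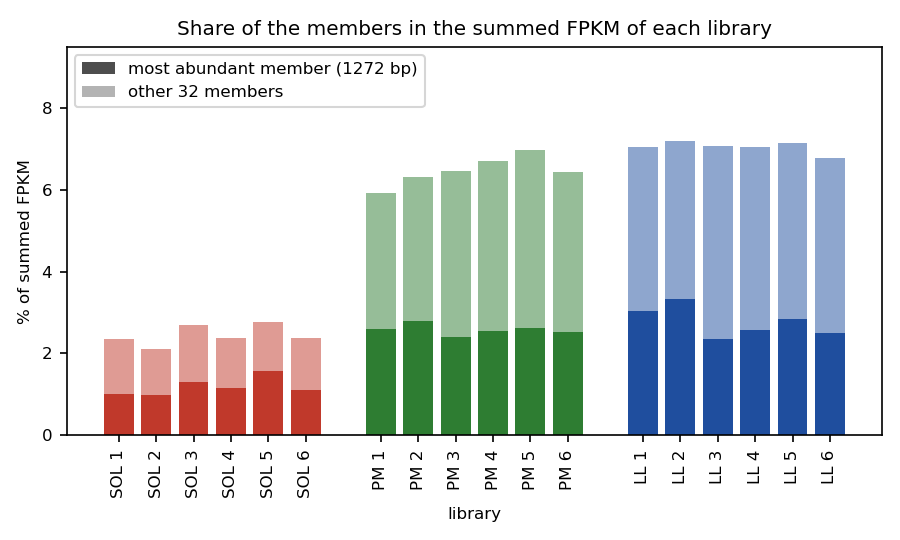
Share of the members in the summed FPKM of each library (%), with the most abundant member in dark and the other 32 members in light colour, for SOL, PM and LL (6 libraries each). SOL libraries reach at most 2.77% and PM and LL libraries at least 5.93%.

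In rank order, 3 members were among the 100 most abundant genes of SOL, 8 among those of PM and 10 among those of LL. The median rank of a member among all genes was 648 in SOL, 231 in PM and 206 in LL. The member that ranked lowest in SOL, at 1732, was the 720-bp gene.

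PM was compared with LL to ask whether the muscles that exceed SOL also differ from each other for these genes. The rule does not set which of them is higher. PM and LL were close for most members: the log2 fold change ran from -0.86 to 0.34, with a median of -0.07 over the members and 0.06 over all genes tested. The mean on the log2 scale was lower in PM for 22 members, or 66.7%, against 43.2% of all genes tested and 54.5% of the other abundant genes. It was lower in PM for 79.4% of the 34 abundant genes with both ratios to SOL at 4 or more. Their median log2 fold change was -0.35, so the lean towards LL was not particular to the members. The median absolute log2 difference was 0.12 in the members and 0.21 in the other 637 abundant genes. The rule asked for both PM and LL above SOL, which left out genes high in PM alone or in LL alone. The other abundant genes had no such limit, so nothing is read from the smaller difference in the members.

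In limma's test of log2(FPKM + 0.1) over 15434 genes, 1 member was lower in PM at an adjusted p under 0.05 and none was higher, where 0.551% of all genes were called lower and 0.933% higher. Among the 670 abundant genes 3.88% were called lower and 4.93% higher. At an unadjusted p under 0.05, 6 members were lower and 0 higher in PM (limma), against 5.24% and 7.41% of all genes. Of the other 637 abundant genes, 107 were lower and 85 higher at that level. Of the 34 abundant genes with both ratios to SOL at 4 or more, 9 were lower and 1 higher. The 95% intervals of the PM against LL difference had half-widths of 0.23 to 0.72 on the log2 scale, and for 32 members the interval lay between -1 and 1. These intervals are not adjusted for the number of genes, so a difference wider than its half-width could still go uncalled. The 816-bp gene, at -0.56 with an interval from -0.85 to -0.27, was such a case. The members not called are not shown to be equal. Libraries were not paired in this fit. With the library number as a block, limma called 4 members lower and 0 higher, and 158 and 257 of the 15434 genes.

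**Figure D4:**
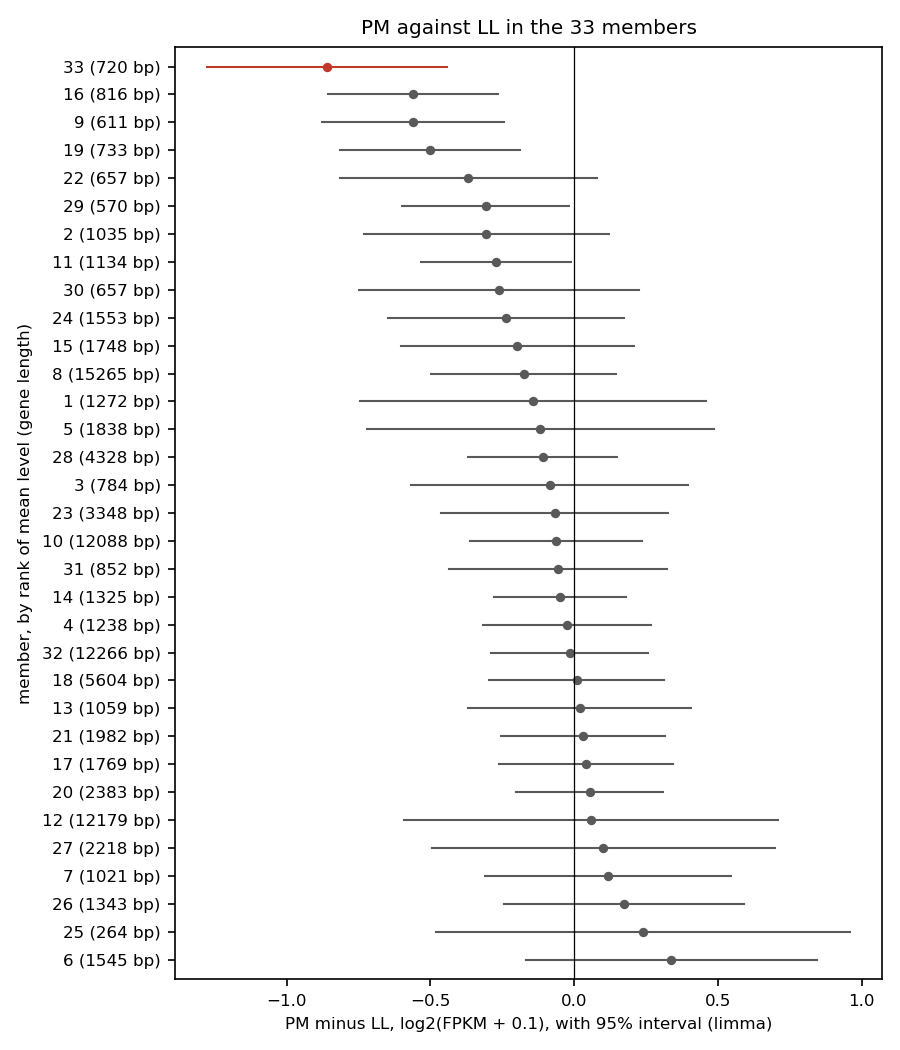
PM minus LL for each member on the log2(FPKM + 0.1) scale, with 95% intervals from limma (6 libraries per muscle). Members are ordered from lower in PM (top) to higher in PM (bottom), and the called member is red. The 720-bp gene lies at -0.86, and the 6 members at the top are all shorter than 1000 bp.

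The called member was ENSOARG00020014327 (720 bp), the least abundant of the 33. It ranged from 36.1 to 60.9 FPKM in SOL (median 40.2), from 64.3 to 118 in PM (median 94.4) and from 87.2 to 211 in LL (median 176). LL 6 was the only LL library within the PM range, and the other 5 stood at 161 or more. PM minus LL was -0.86 on the log2 scale (SE 0.20, adjusted p = 0.032 in limma), and every SOL library lay below every PM library. The call depended on the libraries and on the processing. With LL 1 left out the adjusted p (limma) was 0.068, with LL 2 out 0.056, with LL 3 out 0.075 and with LL 5 out 0.075. With PM 2 left out it was 0.093, with PM 4 out 0.053, with PM 5 out 0.057 and with PM 6 out 0.078. The call held with LL 6 left out (0.0022), PM 3 out (0.027), PM 1 out (0.041) and LL 4 out (0.048), with any SOL library out (0.030 to 0.042) and with voom on recovered reads (0.019). After median-ratio scaling the adjusted p (limma) was 0.055, and in a fit on PM and LL only it was 0.11. Of 27 alternatives to the main fit, 16 kept the call. The log2 fold change stayed between -1.04 and -0.76 in these fits.

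The next 3 members by size of the difference missed the threshold when the libraries were not blocked by number. The 816-bp gene differed by -0.56 on the log2 scale (SE 0.14, adjusted p = 0.0503 in limma), with 193 to 337 FPKM in PM and 265 to 432 in LL. The 611-bp gene also stood at -0.56 (SE 0.15, limma adjusted p = 0.067), and was the only member whose PM libraries, at 428 to 596 FPKM, all lay below its LL libraries, at 613 to 1165. Such a gap was found in 0.609% of all genes. The 733-bp gene stood at -0.50 (SE 0.15, limma adjusted p = 0.11), with 188 to 258 FPKM in PM and 225 to 473 in LL.

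At the other end, the 1545-bp gene had the highest PM against LL difference, at 0.34 on the log2 scale (SE 0.24, adjusted p = 0.62 in limma). Its mean PM level was 1234 ± 146 FPKM and its mean LL level 1059 ± 542 (SD, n = 6 each), and LL 3 at 2116 FPKM gave LL most of its spread. The 2 most abundant members had log2 fold changes of -0.14 for ENSOARG00020006864 (SE 0.29, limma adjusted p = 0.899) and -0.30 for ENSOARG00020005655 (SE 0.20, limma adjusted p = 0.59).

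The members were also divided by length, after these values were seen. Of the 10 members under 1000 bp, 9 were lower in PM, with a median log2 difference of -0.34. Of the 23 longer members, 13 were lower, with a median of -0.03. Among all abundant genes under 1000 bp, 58.2% were lower in PM, with a median of -0.08. Leaving out any 1 library, the median of the short members stayed between -0.43 and -0.29. Library LL 3 ran high for short members, by a median of 0.47 on the log2 scale against 0.04 for all short abundant genes. Without LL 3, 8 of the 10 were lower in PM and the median was -0.34. Short members also ran low in LL 6 (median -0.26) and high in PM 3 (0.24). The part of single libraries in the difference by length was not tested.

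A few members were very long genes. The members ran from 264 to 15265 bp with a median of 1325 bp, close to the 1166 bp of the other abundant genes. Yet 4 of the 33 were 10000 bp or longer (12.1%), against 4 of the other 637 abundant genes (0.628%) and 0.644% of all genes tested with a recovered length. Among the 34 abundant genes with both ratios to SOL at 4 or more, none reached that length and the longest had 6051 bp. No test was made of these shares. A length divisible by 3 was found for 14 members (42.4%), 42.2% of the other abundant genes and 50.9% of all genes tested with a recovered length.

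The 4 long members differed in their spread. The 15265-bp gene ranged from 249 to 443 FPKM in SOL (median 279), from 618 to 944 in PM (median 798) and from 707 to 975 in LL (median 916). The 12088-bp gene ranged from 200.2 to 317 FPKM in SOL (median 227), from 412 to 592 in PM (median 525) and from 396 to 663 in LL (median 556). SOL 3 was the highest SOL library for both, and SOL libraries did not overlap those of PM or LL for either. The 12179-bp gene was far more variable, with a coefficient of variation of 37.4% in SOL, of 34.3% in PM and of 52.4% in LL, and its LL 3 value of 874 FPKM was 2.45 times the median of the other LL libraries. The other 4 abundant genes of such length had LL means of 0.767 to 1.32 times their SOL means.

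Within a muscle, members varied most in LL. The median coefficient of variation was 18.4% in SOL, 16.2% in PM and 22.8% in LL, against 16.8%, 16.1% and 19.6% for the other abundant genes. It was higher in LL than in PM for 22 members and higher in LL than in SOL for 23. Without LL 3 the median in LL was 18.8%. The 34 abundant genes with both ratios at 4 or more had a median of 45.0% in SOL, against 25.6% (PM) and 20.8% (LL).

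LL 3 was the library with the most members high for its muscle. It reached at least 1.5 times the median of the other LL libraries for 9 members and at most 1/1.5 of it for 4, whereas no other library passed the upper limit for more than 2 members, and PM 1, LL 1 and LL 2 each passed the lower limit for 6. Among all 670 abundant genes, LL 3 passed these limits for 11.2% and 9.25%. It was not the extreme library there, since LL 2 passed the upper limit for 12.4% and LL 6 the lower limit for 9.85%. Of the members, the 264-bp gene stood highest in LL 3, at 486 FPKM against 54.1 to 131 FPKM in the other LL libraries, a factor of 4.07 over their median. The 784-bp, 1545-bp, 12179-bp and 2218-bp genes followed at 2.77, 2.51, 2.45 and 2.16 times. Of the 9 members high in LL 3, 8 kept an LL mean of at least 2 times SOL without that library, the 784-bp gene at 2.01 times. The 1545-bp gene fell to 1.67 times and would not be a member. LL 3 also had the fewest genes above 0 of all libraries, 12704 against 13369 or more, and the part of this in the members' values was not tested.

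**Figure D5:**
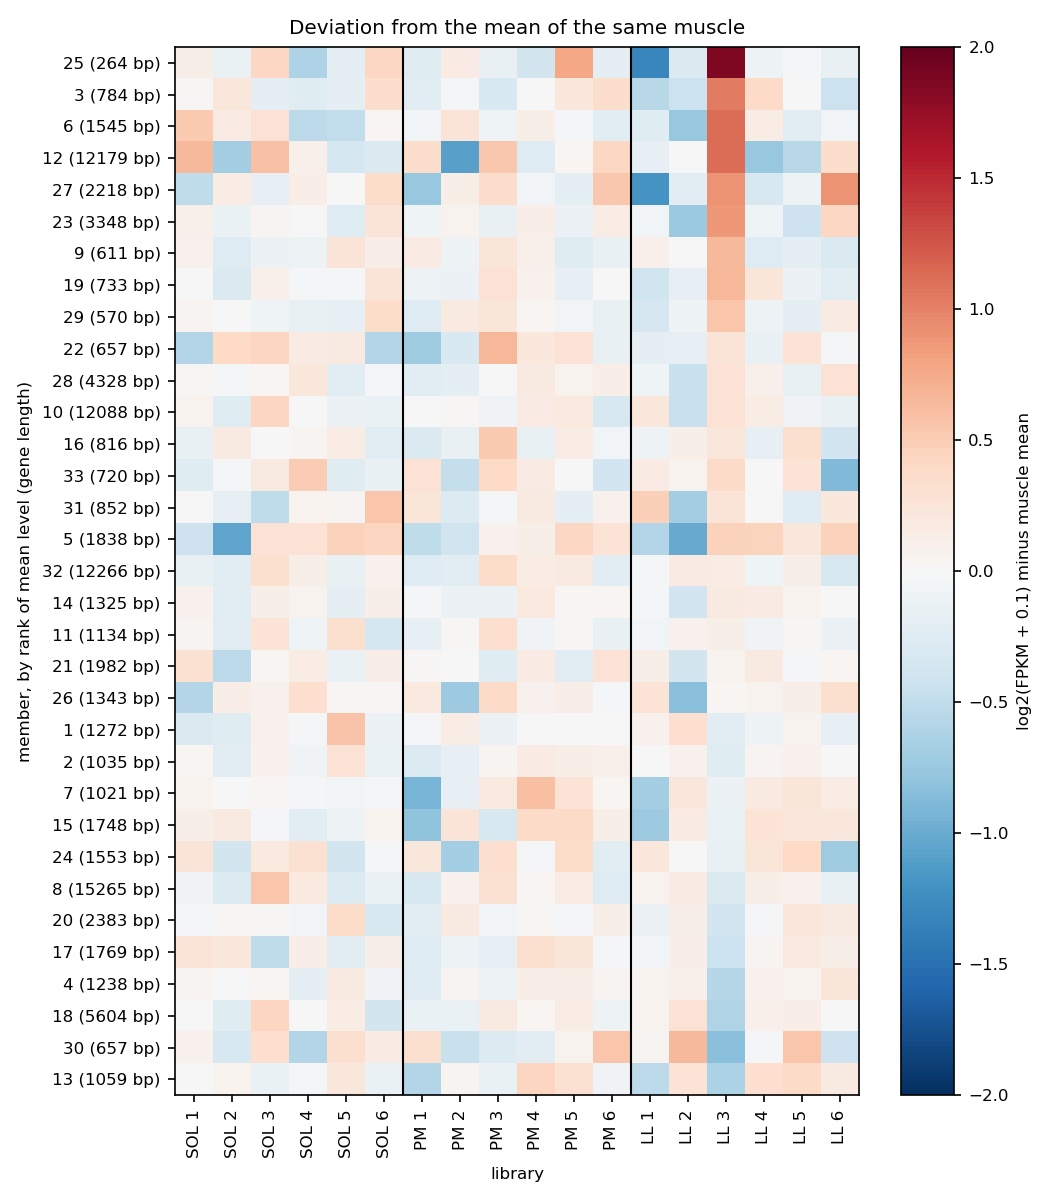
Deviation of each library from the mean of its muscle on the log2(FPKM + 0.1) scale, for the 33 members (rows, ordered by the ratio of LL 3 to the other LL libraries) and 18 libraries (columns, SOL, PM and LL). Red is above and blue below the muscle mean. The highest deviation is that of the 264-bp gene in LL 3, and PM 1 is the lowest PM library for 17 members.

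In PM, library PM 1 was the lowest for 17 of the 33 members and the highest for 1. PM 3 was the highest for 12. In SOL, SOL 2 was the lowest for 10 members, and no SOL library was the highest for more than 8. Over the median of the other libraries of its muscle, PM 1 stood at a median ratio of 0.880 for the members and 0.968 for all abundant genes. These medians were 0.980 and 1.01 for PM 3, and 0.873 and 0.973 for SOL 2. The members with the most similar deviations over the 18 libraries were the 1021-bp and 1748-bp genes (Pearson r = 0.84), the 1059-bp and 1748-bp genes (r = 0.81) and the 1021-bp and 1059-bp genes (r = 0.796). These correlations are descriptions over 18 libraries that all genes share. In PM 1 these 3 genes stood at 538, 154 and 240.5 FPKM, in the order 1021, 1748 and 1059 bp, each the lowest of PM. In LL 1 they stood at 595, 186 and 246 FPKM, below the other LL libraries except for the 1059-bp gene, where LL 3 was lower at 229.

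Most pairs of members did not vary together. Over the 528 pairs the median r was 0.07, against 0.04 over all pairs of abundant genes, and 0.379% of member pairs reached 0.8, against 0.253%. Between same-numbered libraries, the median over members of the r across 6 numbers was 0.51 for PM and LL, 0.30 for SOL and PM and 0.12 for SOL and LL. The same medians over all abundant genes were 0.36, 0.25 and 0.27. Between PM and LL, r was above 0 for 26 members (78.8%) and for 73.0% of the abundant genes.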

How the data were processed

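Per the labels' protocols, the libraries were random-primed from rRNA-depleted total RNA, trimmed reads were aligned with HISAT2 (version 2.2.1), and StringTie (version 2.2.0) assembled the transcripts. Genome build, annotation, counter and strandedness: not given in the sources used here. DESeq is named in the submitters' processing notes, with no role. The values deposited by the authors are FPKM: for 13990 genes above 0 in 12 or more libraries, they gave whole read counts at a whole gene length. The search accepted a gene only within 0.05 of whole counts, and the largest deviation in the end was 0.00014. Reads, lengths and the library totals of 10216739 to 14747118 were recovered in this way.

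The members and lists were chosen with earlier results of these data known. The rule for naming gave the 2 most abundant members and up to 2 called each way for PM against LL. The planned lists of gene symbols and cell type markers were not used, since no identifier is paired with a symbol. PM and LL were compared with limma (3.58.1, R 4.3.3) on log2(FPKM + 0.1) in 1 fit of all 18 libraries, for the 15434 genes averaging 0.1 FPKM or more, with the variance trend and 15 residual degrees of freedom. Two-sided p-values were adjusted over these genes (Benjamini-Hochberg). Fold changes are on that scale. The recovery of reads and the limma fit were also run on simulated data. The limma simulation drew the libraries independently, so it does not bear on pairing. Alternatives were other pseudocounts, filters and scaling, the replicate block, fewer muscles, voom on recovered reads and left-out libraries. A cutoff of 1.5 times for libraries and the length classes were chosen after seeing the data.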

Additional observations from a re-analysis of the deposited data

Results flagged for a closer look

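Dixon's test was applied to the extreme libraries of each muscle for all 33 members, which made 99 sets of 6 values. Of these, 10 stood out, where chance flags about 1 in 20 sets of normally distributed values, or 4.95. The sets held FPKM values, not shown to be normally distributed, and shared the same 18 libraries. Nothing is therefore read from 10 against 4.95. LL 3 accounted for 5 of the 10. It was far below the other LL libraries for ENSOARG00020005655 (7354 FPKM, the next at 8632) and the 1238-bp gene (897 FPKM, the next at 1408). It was far above them for the 1545-bp gene (2116 FPKM, the next at 1070), the 611-bp gene (1165 FPKM, the next at 799.6) and the 264-bp gene (486 FPKM, the next at 131).

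The other 5 were spread over as many libraries. SOL 5 stood high for ENSOARG00020006864 (9764 FPKM, the next at 6976), and SOL 6 for the 570-bp gene (66.9 FPKM, the next at 53.9). PM 3 stood high for the 1134-bp gene (645 FPKM, the next at 518), and PM 5 for the 264-bp gene (269.9 FPKM, the next at 176). LL 2 stood low for the 1343-bp gene (85.1 FPKM, the next at 158).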

How the results depend on the processing

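The number of members was 33 as the rule stands, 64 with an abundance limit of 50 FPKM and 19 with 200 FPKM. It was 32 to 36 when 1 library was left out, with 30 to 33 of the members kept. Median-ratio scaling gave 36 genes with 31 members kept, medians in place of means gave 30, all of them members, and dropping 3 libraries at once (LL 3, SOL 3, SOL 5) gave 31 with 28 kept. Counts of members whose libraries did not overlap moved by at most 1 under scaling and left-out libraries.

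For PM against LL, 229 genes were called. The count was 110 in a fit on PM and LL only, 415 with the replicate block and 136 to 337 with 1 library left out. Members called lower in PM numbered 1, against 0 in the fit on PM and LL only, 0 after median-ratio scaling, 2 with a filter of 1 FPKM, 2 with a pseudocount of 0.01, 3 with voom on recovered reads, 4 with the replicate block (ENSOARG00020014327 at an adjusted p of 0.0075, the 816-bp gene at 0.012, the 733-bp gene at 0.038 and the 611-bp gene at 0.049, limma) and 0 to 3 with 1 library left out. With the same 3 libraries dropped, chosen after seeing the data, the number was 0. No alternative called a member higher in PM. ENSOARG00020014327 was called in 16 of 27 alternatives. The cause of these moves was not tested. Deviations of same-numbered libraries correlated with r from 0.090 to 0.18 for PM and LL, from 0.13 to 0.23 for SOL and PM and from 0.086 to 0.19 for SOL and LL, and every library correlated best with its own number. This is a hint of pairing from the data. Between libraries of different number, r was at most 0.0070 for PM and LL, 0.017 for SOL and PM and 0.052 for SOL and LL. For PM and LL, the muscles tested, the lowest same-number r was under 0.1 but above every r between libraries of different number. The labels give the numbers no meaning, and the main fit was planned without pairs. If the numbers do mark pairs, the main fit ignores them and the counts with the replicate block apply.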
